A study of Sus scrofa with 16 samples.

Results

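Genes of enterochromaffin cells and of peptide neurotransmitters were followed through single cells of the pig small intestine. The 4 genes were chosen by symbol: TPH1, LMX1A, PENK and TAC1. LMX1A (ENSSSCG00000006329), PENK (ENSSSCG00000006243) and TAC1 (ENSSSCG00000023592) were matched among the 25880 genes measured. TPH1 matched no symbol or gene ID used here and was not analysed, so the defining enzyme of enterochromaffin cells has no value below.

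Enterochromaffin cells are the serotonin-making cells of the gut lining and belong to the enteroendocrine cells, which release hormones from chromogranin-bearing granules. TPH1 is the rate-limiting enzyme of their serotonin synthesis, and LMX1A is a homeodomain transcription factor that, in mice, acts upstream of Tph1 in these cells. PENK encodes proenkephalin, the precursor of the enkephalin opioid peptides, and TAC1 encodes the precursor of substance P and neurokinin A. Both peptide families are also used by enteric neurons as transmitters.

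The epithelium came from mixed-breed female pigs aged 7.5 weeks, with no treatment named in the labels. DUOD was duodenum just past the pylorus, JEJ was jejunum about 3 feet past it, and both ileal samples were cut 2 to 12 inches before the ileocecal valve. IPP was ileum that bore Peyer's patches, which are organised lymphoid tissue, and NoPP was patch-free ileum. The labels list 16 titles, 4 per region, but counts came as 1 pooled matrix per region and no cell could be assigned to a title, so each region is 1 sample without replicates and no difference between regions or cell classes could be tested.

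Values are unique molecular identifier (UMI) counts, that is, counts of captured mRNA molecules per cell barcode. Total depth was 91813234 UMIs for DUOD, 64364750 for JEJ, 65583520 for IPP and 44726845 for NoPP. A barcode was kept if it had 1000 or more UMIs, 500 or more genes and no more than 25% mitochondrial UMIs. This left 718, 986, 3273 and 2205 barcodes in the same order. A CHGA barcode had at least 3 UMIs of CHGA, the chromogranin A of endocrine granules, and 0 of PTPRC, the pan-leukocyte antigen CD45. DUOD had 37 CHGA barcodes, JEJ had 19, IPP had 48 and NoPP had 28, making 132 in all, with median depths of 17814, 12541, 13843.5 and 10116 UMIs. Intervals are given at 95% and describe counting error alone, so they say nothing of the spread between pigs or libraries. Those of ratios treat UMIs as independent counts, so they leave out the spread between barcodes as well.

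The label of these barcodes as endocrine was checked with NEUROD1, an endocrine transcription factor, and CHGB, another granule protein. At least 1 UMI of either was found in 36 of the 37 CHGA barcodes of DUOD, 17 of 19 in JEJ, 20 of 48 in IPP and 22 of 28 in NoPP. The other 28 IPP barcodes had 3 to 25 CHGA UMIs and a summed enterocyte marker level of 18426 CPM (UMIs per 1000000 UMIs of the class), against 4744 CPM in the 20 IPP barcodes with NEUROD1 or CHGB. The IPP class therefore mixed barcodes with and without further endocrine genes, and none of the 28 held a UMI of LMX1A, PENK or TAC1. Sharing of barcodes between libraries was also counted. Of the kept barcodes 232 were also kept in another library, and 5 of these were CHGA barcodes. No CHGA barcode had 10 times as many UMIs elsewhere, but 1 in NoPP, which held no LMX1A or PENK, had 9.79 times as many.

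LMX1A was found in CHGA barcodes of every region. It was detected in 6 of 37 CHGA barcodes in DUOD (16.2%, interval 6.19 to 32.0), 9 of 19 in JEJ (47.4%, 24.4 to 71.1), 14 of 48 in IPP (29.2%, 17.0 to 44.1) and 7 of 28 in NoPP (25%, 10.7 to 44.9). The intervals of all 4 regions overlapped. Counts per positive barcode were low, as is common for a transcription factor in droplet data. They ran over 1 to 6 UMIs in DUOD (median 1), 1 to 11 in JEJ (median 2), 1 to 6 in IPP (median 2.5) and 4 to 11 in NoPP (median 6). NoPP was the only region in which every positive barcode had more than 1 UMI.

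PENK was detected in a similar number of CHGA barcodes, with high counts in some of them. It was detected in 3 of 37 CHGA barcodes in DUOD (8.11%, 1.70 to 21.9), 6 of 19 in JEJ (31.6%, 12.6 to 56.6), 16 of 48 in IPP (33.3%, 20.4 to 48.4) and 10 of 28 in NoPP (35.7%, 18.6 to 55.9). The DUOD share was the lowest, and its interval overlapped those of the other regions. The 3 DUOD barcodes had 18, 5 and 2 PENK UMIs, and the 6 JEJ barcodes had 666, 277, 17, 2, 2 and 1. In IPP the positive barcodes ran over 1 to 110 UMIs (median 5) and in NoPP over 3 to 107 (median 19). A few barcodes therefore carried most of the proenkephalin mRNA. The highest barcode alone held 72% of the class's PENK UMIs for DUOD, 69.0% for JEJ, 32.0% for IPP and 30.3% for NoPP.

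TAC1 was hardly detected in the CHGA barcodes. None of the 37 in DUOD and none of the 48 in IPP had a UMI, which allows shares of up to 8.11% and 6.25%, and 1 barcode in JEJ and 1 in NoPP had a single UMI each. The JEJ barcode was the one with 666 PENK UMIs and 11 of LMX1A, and the NoPP barcode had neither gene but 6248 UMIs of SST, the hormone somatostatin. A further NoPP barcode, left out of the class by 1 PTPRC UMI, held 101 TAC1 UMIs beside 27 of CHGA and 4103 of SST. At these counts no level or region order can be given for TAC1.

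**Figure D1:**
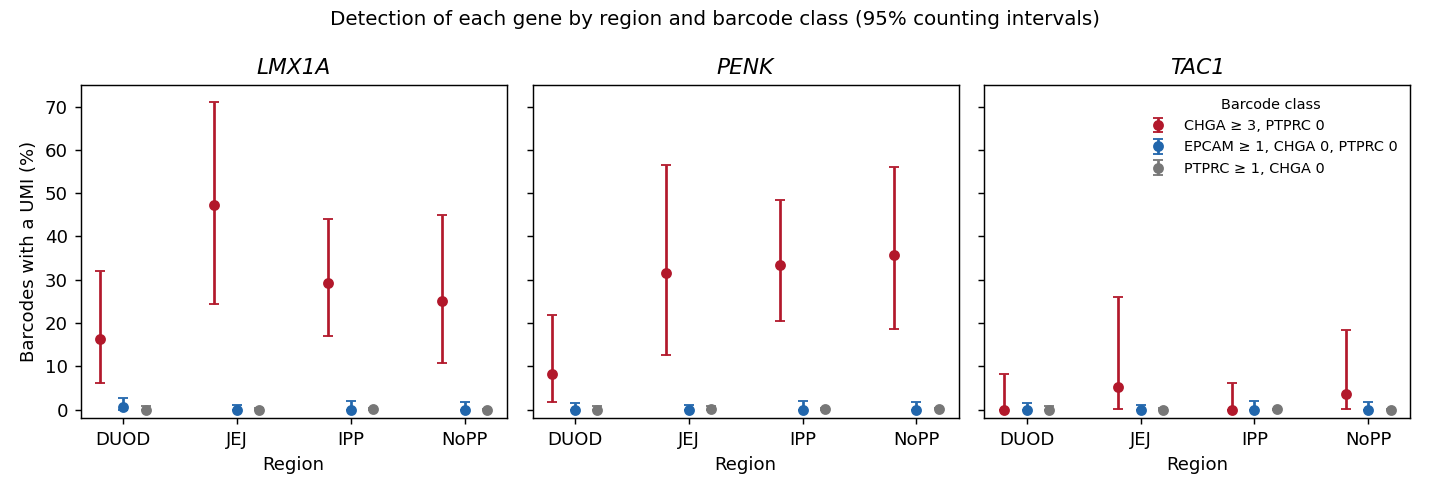
Percent of barcodes with at least 1 UMI of LMX1A, PENK or TAC1 (y axis) by region (x axis) in 3 classes, the CHGA barcodes in red, EPCAM barcodes without CHGA and PTPRC in blue and PTPRC barcodes without CHGA in grey. Points are shares and bars are 95% counting intervals, with a limit of 3 barcodes where the count was 0. LMX1A and PENK lie at 8.11 to 47.4% in CHGA barcodes of the 4 regions and at 0.503% or below in the other classes.

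Detection outside the CHGA barcodes gave the background. Epithelial barcodes without CHGA (at least 1 UMI of EPCAM, 0 of CHGA and PTPRC) numbered 808, with a median of 11120 UMIs, and held LMX1A in 1 and PENK and TAC1 in 0, which allows a share of up to 0.371%. Leukocyte barcodes (at least 1 UMI of PTPRC, 0 of CHGA) numbered 5697, with a median of 3916 UMIs, and held LMX1A in 2, PENK in 6 and TAC1 in 1. Every barcode was also thinned to 2000 UMIs in 1 random draw. LMX1A was then in 5.41% of CHGA barcodes from DUOD, 11.1% from JEJ, 16.7% from IPP and 22.2% from NoPP, and PENK in 8.11, 16.7, 25 and 37.0%. The LMX1A shares of DUOD and JEJ rest on 2 barcodes each. Among thinned leukocyte barcodes LMX1A was in none, and PENK was in 2 of 1578 in NoPP and in none elsewhere. Thinning left out 1 CHGA barcode in JEJ and 1 in NoPP. LMX1A thus had its highest share in JEJ before thinning and in NoPP after it, and no order of the regions is read from these shares.

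Set against CHGA-free epithelium, the levels of both genes were past 2-fold higher in every region. LMX1A was at 17.2 CPM in CHGA barcodes of DUOD and 0.198 CPM in CHGA-free epithelium there, 86.8-fold higher (13.0 to 3688, from 1 UMI in the epithelium). It was at least 159-fold higher in JEJ, 41.4-fold in IPP and 78.4-fold in NoPP, with the 0 UMIs of each epithelial class set to 3. The lower ends of the exact Poisson intervals, computed with the 0 UMIs as observed, were 121, 32.1 and 61.3. For PENK the bounds were at least 55.6-fold in DUOD, 5111-fold in JEJ, 365-fold in IPP and 602-fold in NoPP. The lower ends of its intervals were 42.0, 4148, 295 and 487 in the same order. With at most 10% mitochondrial UMIs the 1 epithelial LMX1A UMI of DUOD was left out, since its barcode had 15.1%. Both DUOD values were then bounds with 0 set to 3, at log2 ratios of at least 1.97 for LMX1A and 1.29 for PENK. The main values were a ratio of 6.44 for LMX1A and a bound of 5.80 for PENK. A lower bound does not give a smaller difference, so none is read from these values. Of all genes compared in the same way, 15.1% were past 2-fold higher for DUOD, 19.4% for JEJ, 4.88% for IPP and 13.2% for NoPP. Past 2-fold lower were 27.2, 18.8, 7.79 and 19.4% in the same order.

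Between regions, the summed levels of LMX1A and PENK in CHGA barcodes were lowest in DUOD. LMX1A was at 112 CPM in JEJ against 17.2 CPM in DUOD, 6.52-fold higher (3.30 to 13.6), and at 179 CPM in NoPP, 10.4-fold higher than in DUOD (5.51 to 20.9). PENK was at 3610 CPM in JEJ against 33.1 CPM in DUOD, 109-fold higher (73.5 to 169), and at 1370 CPM in NoPP, 41.4-fold higher than in DUOD (27.6 to 64.9). Of all genes compared, 16.6% were past 2-fold higher and 4.84% lower for JEJ over DUOD, and 23.4% higher and 5.94% lower for NoPP over DUOD. These comparisons share the DUOD barcodes. The PENK values rest on few barcodes. Weighting each barcode equally instead of by its depth gave log2 ratios of 1.57 for LMX1A and 5.67 for PENK in JEJ over DUOD, against 2.71 and 6.77. In NoPP over DUOD it gave 2.20 and 4.56, against 3.38 and 5.37. With at most 10% mitochondrial UMIs the PENK log2 ratios were larger, at 9.01 in JEJ and 7.30 in NoPP over DUOD.

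Within the ileum, both genes were lower in IPP than in NoPP over all CHGA barcodes, but the size of the difference changed with the barcodes kept, and its direction turned at a stricter mitochondrial limit. Over all CHGA barcodes LMX1A was at 54.8 CPM in IPP and 179 CPM in NoPP, a ratio of 0.307 (0.195 to 0.480), and PENK was at 483 CPM in IPP and 1370 CPM in NoPP, a ratio of 0.353 (0.303 to 0.410). Of all genes compared, 16.2% were past 2-fold lower and 15.8% higher in IPP than in NoPP. The median mitochondrial share of the CHGA barcodes was 15.7% in IPP and 5.60% in NoPP. With at most 10% mitochondrial UMIs the direction turned, with log2 ratios of 0.19 for LMX1A and 0.22 for PENK. Among barcodes that also had NEUROD1 or CHGB, a condition chosen after seeing the data, the log2 ratios were -0.33 and -0.13. In that subset LMX1A was detected in 14 of 20 barcodes in IPP (70%, 45.7 to 88.1) and 7 of 22 in NoPP (31.8%, 13.9 to 54.9), and PENK in 16 of 20 in IPP (80%, 56.3 to 94.3) and 10 of 22 in NoPP (45.5%, 24.4 to 67.8). The part of the mitochondrial share in this result was not tested.

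LMX1A and PENK were found in largely the same barcodes. PENK was detected in 29 of the 36 LMX1A barcodes (80.6%, 64.0 to 91.8) and in 6 of the 96 CHGA barcodes without LMX1A (6.25%, 2.33 to 13.1). Read the other way, LMX1A was detected in 29 of the 35 PENK barcodes (82.9%, 66.4 to 93.4) and in 7 of the 97 without PENK (7.22%, 2.95 to 14.3). Over all regions LMX1A barcodes were no deeper, with a median of 11460 UMIs against 13839.5 in CHGA barcodes without LMX1A. By region they were shallower in DUOD (12661.5 against 19010) and IPP (9917.5 against 15196). They were deeper in JEJ (14110 against 12097.5) and NoPP (11827 against 8380). With the NEUROD1 or CHGB condition the share of barcodes without LMX1A that had PENK was 10.2%.

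The overlap was then counted by region. In DUOD 3 of 6 LMX1A barcodes also had PENK, and in JEJ 5 of 9 did, while in IPP all 14 and in NoPP all 7 did. Barcodes with LMX1A and no PENK numbered 3 in DUOD, 4 in JEJ and 0 in both ileal samples, and 6 of these 7 had a single LMX1A UMI. With both genes set at 2 or more UMIs, a limit chosen after seeing the data, PENK was in 2 of 2 LMX1A barcodes for DUOD, 3 of 5 for JEJ, 10 of 10 for IPP and 7 of 7 for NoPP (91.7% over all), so no difference between the upper gut and the ileum is read from these counts. The exact interval of the ileal shares reached down to 76.8% in IPP and 59.0% in NoPP, and those of DUOD (11.8 to 88.2) and JEJ (21.2 to 86.3) overlapped both. PENK without LMX1A was seen in no DUOD barcode, 1 JEJ barcode, 2 IPP barcodes and 3 NoPP barcodes.

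Both genes lay at the high end of CHGA. Of the 48 barcodes with at least 50 CHGA UMIs, 32 had LMX1A and 29 had PENK. Of the 48 with 3 to 9 CHGA UMIs, 1 had LMX1A and 2 had PENK. Just inside the limit, the 21 barcodes with 3 or 4 CHGA UMIs held neither gene, and just outside it, the 56 PTPRC-free barcodes with 1 or 2 CHGA UMIs held LMX1A in 1 and PENK in 0. Median CHGA was 141 UMIs per 10000 in LMX1A barcodes and 8.03 in CHGA barcodes without LMX1A.

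**Figure D2:**
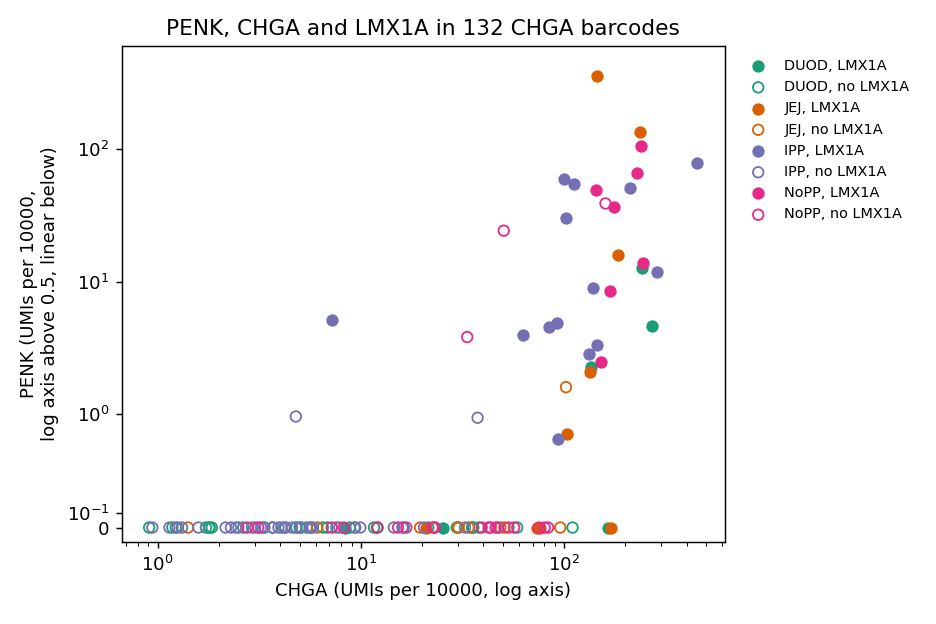
PENK (y axis, UMIs per 10000, log scale above 0.5 and linear below) against CHGA (x axis, UMIs per 10000, log scale) in the 132 CHGA barcodes, coloured by region. Filled points have at least 1 UMI of LMX1A and open points have none. PENK is above 0 in 29 of 36 filled points and in 6 of 96 open ones, and the positive points lie mostly at high CHGA.

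Barcodes with both genes carried little of the classical gut hormones. With a hormone counted as present at 50 or more UMIs per 10000, a limit chosen after seeing the data, 1 of the 29 barcodes with LMX1A and PENK had any hormone of the list (3.45%, 0.0873 to 17.8). It was an IPP barcode with PYY, the satiety peptide of ileal L cells. Of the 7 with LMX1A and no PENK, 5 had a hormone, in each case SCT, the secretin of the upper gut, and 4 of these 5 had a single LMX1A UMI. Of the 5, the 2 in JEJ also had NTS (neurotensin) and CCK (cholecystokinin). Of the 6 with PENK and no LMX1A, 1 in JEJ had GIP. Of the 90 with neither gene, 60 had a hormone (66.7%, 55.9 to 76.3), led by SST in 25 and GHRL, the precursor of ghrelin, in 12. By region these were 30 of 31 in DUOD, 9 of 9 in JEJ, 3 of 32 in IPP and 18 of 18 in NoPP, where the low IPP count includes the 28 barcodes without NEUROD1 or CHGB.

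**Figure D3:**
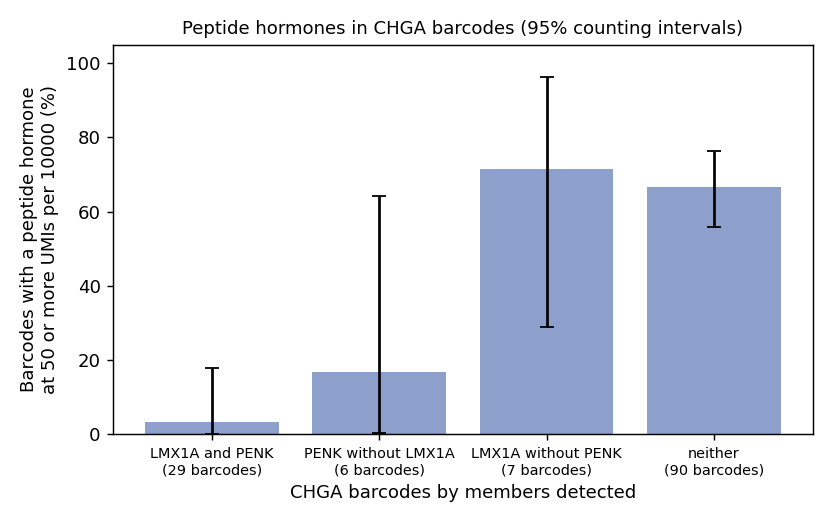
Percent of CHGA barcodes with at least 1 listed peptide hormone at 50 or more UMIs per 10000 (y axis), for barcodes with LMX1A and PENK, PENK without LMX1A, LMX1A without PENK and neither (x axis). Bars are shares over the 4 regions pooled and lines are 95% counting intervals. The share is 3.45% with both genes and 66.7% with neither.

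The 36 LMX1A barcodes were then set against the 96 CHGA barcodes without LMX1A across all genes, a split chosen after the files were seen, in place of one by TPH1. CPM were computed in each region and averaged with equal weight over the 4 regions, and a gene was set against a 2-fold limit if it had at least 20 UMIs over both classes. Of 6899 genes 22.0% were past 2-fold higher and 7.20% past 2-fold lower, and the median log2 ratio over all of them was 0.52, so that higher values were common. Markers of other cell types are given with it. In LMX1A barcodes the tuft, stromal or muscle, endothelial and mast lists were at 0, and 3 of 8 T or innate lymphoid markers summed to 0 to 67.4 CPM over the regions, against 10.3 to 95.6 CPM without LMX1A. Neuron or glia markers, of which 3 of 7 were detected, summed to 27.2 to 150 CPM with LMX1A and 0 to 33.7 CPM without, and RET and SOX10, which mark enteric neural cells and glia, were at 0 in all CHGA barcodes. Goblet markers were at 2038 CPM with LMX1A and 457 CPM without in DUOD, and at 1988 and 555 CPM in IPP, but at 653 and 582 CPM in JEJ and at 414 and 928 CPM in NoPP. General epithelial markers were higher with LMX1A in all 4 regions, at 4950 to 8419 CPM against 2619 to 3300 CPM without. Enterocyte markers summed to 2649 to 5224 CPM with LMX1A and 2074 to 16410 CPM without, where IPP was highest. Their part in the ratios below was not tested.

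Of the 28 enterochromaffin genes listed besides LMX1A, 14 could be compared, and 10 were past 2-fold higher in LMX1A barcodes and 1 lower (median log2 ratio 1.52). With each ratio divided by the all-gene median, 7 were higher and 1 lower. With at most 10% mitochondrial UMIs 6 were higher, but over JEJ and NoPP alone. DUOD had fewer than 5 barcodes with LMX1A there and IPP fewer than 5 without, the minimum per region. The share of all genes past 2-fold was not counted at these settings. The 10 include SCT, which is also in the hormone list below, CHGB, also in the granule list, and UCN3, also in the list of other neuropeptides. The lists were chosen with earlier results of these data known. DDC, the decarboxylase that turns 5-hydroxytryptophan into serotonin, was at 385 CPM in LMX1A barcodes and 65.1 CPM in those without, 5.91-fold higher, and was detected in 35 of 36 and 36 of 96 barcodes. It was higher in all 4 regions, as were the amino acid transporter SLC38A11 (5.16-fold), CHGB (5.18-fold), the peptide gene UCN3 (5.78-fold), the calcium channel CACNA1H (2.33-fold) and REG4 (2.33-fold, with 44.1% of its UMIs in 1 barcode). The sodium channel gene SCN3A (3.35-fold) and MAOB, a monoamine oxidase (2.47-fold), were higher in 3 of 4. For REG4 the IPP levels were nearly equal, at 74.1 CPM with LMX1A and 72.7 CPM without. With UMIs summed over the regions REG4 was at 504 CPM with LMX1A and 423 CPM without.

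TRPA1, an irritant-sensing ion channel of enterochromaffin cells, had the highest ratio of the list. Its 60 UMIs lay in 8 LMX1A barcodes and in none of the 96 without LMX1A, at least 62.6-fold higher with 3 UMIs set for the 0. These were 4 of 6 LMX1A barcodes in DUOD, 3 of 9 in JEJ, 0 of 14 in IPP and 1 of 7 in NoPP. JEJ led by level, at 320 CPM, and the barcode with most held 50% of all its UMIs, 30, and was also the one with 666 UMIs of PENK. TRPA1 was thus seen mainly in the upper gut, in barcodes with PENK and in barcodes without it. A JEJ barcode with 16 TRPA1 UMIs had 277 of PENK, and a DUOD barcode with 6 had 0.

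Other serotonin genes moved differently. MAOA, the monoamine oxidase that degrades serotonin, was at 3.38 CPM in LMX1A barcodes and 114 CPM in those without, lower in all 4 regions, and was detected in 2 of 36 and 44 of 96 barcodes. SLC18A1, the vesicular monoamine transporter of endocrine cells, had too few UMIs for the comparison. It was detected in 9 of 36 LMX1A barcodes (25%, 12.1 to 42.2) and 2 of 96 without (2.08%, 0.253 to 7.32). SLC18A2, the neuronal vesicular transporter, was detected in 0 of 36 and 6 of 96, and SLC6A4, the serotonin reuptake transporter, in 1 of 36 and 9 of 96. All 9 of these SLC6A4 barcodes were among the 34 IPP barcodes without LMX1A, of which 28 had no NEUROD1 or CHGB. The tetrahydrobiopterin genes, which supply the cofactor of tryptophan hydroxylase, stayed within 2-fold, at 1.77-fold for PTS, 1.74-fold for QDPR and 0.74-fold for GCH1. FEV, an enterochromaffin transcription factor in mice, was detected in 4 of 36 and 3 of 96, and TPH2, the neuronal tryptophan hydroxylase, had 0 UMIs in all CHGA barcodes.

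Among the 10 hormone genes compared, 9 were past 2-fold lower in LMX1A barcodes and 1 was higher (median log2 ratio -7.72, with genes at 0 UMIs at their bound). SST was at 29.1 CPM in LMX1A barcodes and 141621 CPM in those without, and GHRL, MLN (motilin) and GIP had 0 UMIs in LMX1A barcodes. SCT was the exception, at 16797 CPM with LMX1A and 4591 CPM without (3.66-fold higher). Its LMX1A-barcode level was 40069 CPM in DUOD and 26964 CPM in JEJ but 53.9 CPM in IPP and 100.3 CPM in NoPP. With LMX1A barcodes set at 2 or more UMIs no hormone was higher, but only over JEJ, IPP and NoPP. DUOD, where SCT was highest, had 2 such barcodes and fell below the minimum of 5 per region. Against CHGA barcodes without PENK, PENK barcodes had SCT at 320 CPM against 9749 CPM, a ratio of 0.033 over JEJ, IPP and NoPP. DUOD, with 3 PENK barcodes, was below the minimum of 5 per region and was left out of that comparison. There all 10 hormones were lower, where 9.24% of all genes were. Of 15 enterochromaffin genes 9 were higher, where 19.5% of all genes were. LMX1A, found in largely the same barcodes as PENK, is 1 of these 9.

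**Figure D4:**
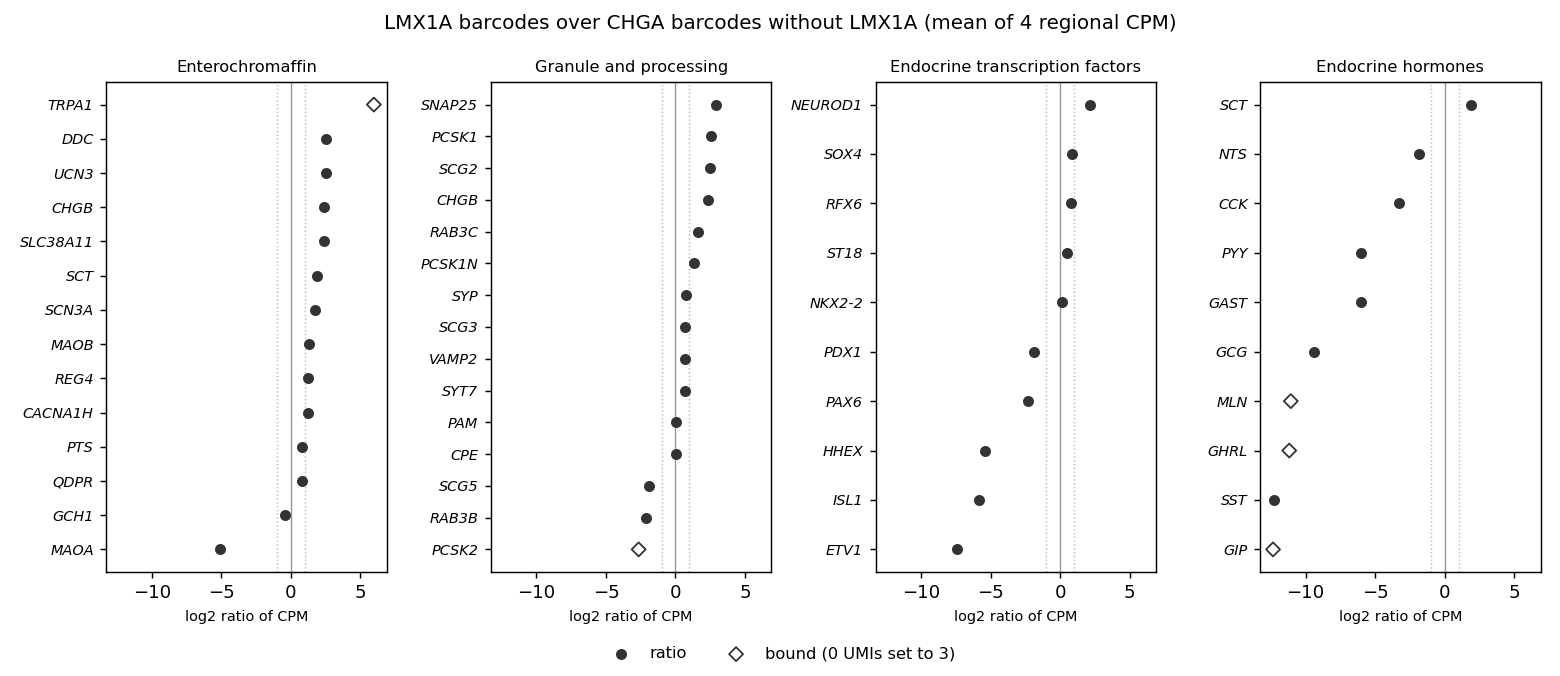
Log2 ratio of CPM in LMX1A barcodes over CHGA barcodes without LMX1A (x axis, mean of 4 regional CPM) for list genes with at least 20 UMIs (y axis). Filled circles are ratios, open diamonds are bounds with 0 UMIs set to 3, and dotted lines mark 2-fold. CHGA, which set the barcodes, is not drawn, and 10 of 14 enterochromaffin genes lie above the upper line while 9 of 10 hormones lie below the lower one. SCT is in both of these lists and lies above the upper line in each. The lists were chosen with earlier results of these data known.

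Of the other neuropeptide genes only UCN3, which encodes the stress peptide urocortin 3, had enough UMIs to be compared. It was found in 17 of 36 LMX1A barcodes and 9 of 96 without, and in 9 of the 14 in IPP, 4 of 7 in NoPP, 3 of 9 in JEJ and 1 of 6 in DUOD. PDYN, the other main opioid precursor, and VIP, GRP, GAL, NMU, CARTPT and ADCYAP1 had 0 UMIs in the 132 CHGA barcodes. The opioid receptor genes OPRM1, OPRD1 and OPRK1 and the neurokinin receptor gene TACR2 were also at 0, and TACR3 had 5 UMIs in 2 LMX1A barcodes.

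Of 10 endocrine transcription factors compared, NEUROD1 was higher (4.45-fold, at 1008 CPM with LMX1A and 226 CPM without) and 5 were lower. Of all genes 22.0% were higher and 7.20% lower. The median log2 ratio of the list was -0.85, against 0.52 over all genes. ISL1, ETV1 and HHEX lay mainly in barcodes without LMX1A. They were detected in 2, 1 and 1 of 36 LMX1A barcodes and in 39, 46 and 20 of 96. PAX6 had a ratio of 0.20 and PDX1 of 0.28. PAX4, which had too few UMIs for the comparison, was detected in 9 of 36 and 3 of 96. Summing UMIs over the regions in place of averaging them put 4 factors past 2-fold higher.

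Of 15 granule and processing genes, not counting CHGA, which set the barcodes, 6 were higher and 3 lower. Of all genes 22.0% were higher and 7.20% lower. The median log2 ratio of the list was 0.71, near the 0.52 over all genes. The synaptic fusion protein gene SNAP25 was at 581 CPM with LMX1A and 78.5 CPM without (7.39-fold). PCSK1, a prohormone convertase, was 5.81-fold higher and the secretogranin gene SCG2 5.71-fold higher, both in all 4 regions. Another convertase, PCSK2, had 0 UMIs in LMX1A barcodes and 108 in 20 barcodes without LMX1A. SCG5, which encodes the chaperone of that convertase, had a ratio of 0.27, and RAB3B had 0.23 while its relative RAB3C had 3.01.

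Across all genes with at least 50 UMIs that went the same way in every region, PENK had the highest ratio, at 3285 CPM in LMX1A barcodes and 57.0 CPM in those without (57.6-fold). It was followed by MOCS1, of molybdenum cofactor synthesis (23.0-fold), SAAL1 (22.9-fold), the fatty acid-binding protein gene FABP3 (13.6-fold), the AMPA receptor subunit gene GRIA2 (13.0-fold), NELL2 (12.2-fold), the nuclear receptor gene NR4A1 (11.5-fold), C4BPA (11.3-fold), COL6A6 (9.23-fold) and LTA4H, of leukotriene synthesis (8.54-fold). The lowest were SST, GHRL, ETV1, the calcium-binding protein gene SCGN and the peptide transporter gene SLC15A1. In the PENK barcodes the highest were LMX1A (28.9-fold), the cytochrome gene CYP2C49 (23.7-fold), SAAL1 (21.5-fold), COL6A6 (20.2-fold), ITPR3 (14.3-fold), NR4A1 (14.1-fold), C4BPA (13.0-fold), TLE1 (10.1-fold), the prostaglandin E2 receptor gene PTGER4 (9.65-fold) and GRIA2 (9.55-fold). These rankings share most of their barcodes.

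SAAL1 (ENSSSCG00000035393) was detected in 34 of 36 LMX1A barcodes and 20 of 96 without, with 599 UMIs against 72. Its level with LMX1A was 558 CPM in DUOD, 979 CPM in JEJ, 1658 CPM in IPP and 2081 CPM in NoPP, against 10.3, 49.9, 74.5 and 95.6 CPM without. In the RefSeq gene table of assembly Sscrofa11.1 SAAL1 is listed next to TPH1. Whether reads of either gene could be counted for the other was not tested.

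The genes whose pattern was most like that of LMX1A over the 132 barcodes, among 7501 genes, were SAAL1 (Pearson r 0.78 of log counts per 10000 with region means subtracted), NR4A1 (0.77), PENK (0.76), ANXA13 (0.72) and NEUROD1 (0.68). For PENK they were LMX1A (0.76), ITPRID2 (0.69), ANXA13 (0.69), SAAL1 (0.66) and NR4A1 (0.66). Over the 95 barcodes that also had NEUROD1 or CHGB, with 7451 genes, the list of LMX1A was SAAL1 (0.71), NR4A1 (0.71), PENK (0.69), CHCHD7 (0.63) and ANXA13 (0.63). That of PENK was LMX1A (0.69), the unnamed gene ENSSSCG00000009851 (0.65), ITPRID2 (0.63), ADORA2A (0.61) and KRT14 (0.59), so that ANXA13, SAAL1 and NR4A1 were not among its first 5. LMX1A led the list of PENK in both sets of barcodes, and PENK stood at rank 3 in that of LMX1A. Among the 29 barcodes with both genes Pearson's r of their levels was 0.24 and Spearman's rho 0.24. The barcodes share 4 libraries and differ in depth, and no likeness was computed for TAC1 with its 2 barcodes.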

How the data were processed

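Per the file headers, the deposited values are raw UMI counts made with Cell Ranger 4 (4.0.6 in the submitters' processing notes), 3' version 3 droplets per the labels' protocols. The genome build is not given in the sources used here. No coordinates or sequences are printed. Symbols for 17733 of the 25880 genes came from the files and for 977 from the gene name table, and 7170 had none. Barcode filters are given above. Doublets were not removed beyond PTPRC at 0: the automatic threshold of the doublet score called 33 of 7182 barcodes and had not worked, and leaving out the 137 highest scores was an alternative. CPM are UMIs summed over a class, per 1000000 UMIs of that class. With 1 sample per region there was no test. Shares have exact Clopper-Pearson intervals, ratios exact Poisson intervals, and a count of 0 was set to 3. The planned split by TPH1 was replaced by LMX1A after TPH1 matched no gene. The members and gene lists were chosen with earlier results of these data known. Named genes are the members, list genes, the 5 genes most like each member, and the 10 highest and 5 lowest ratios at 50 or more UMIs. The ratio calculation was tested on simulated data. Python 3.11.15, scipy 1.17.1 and scanpy 1.11.5 were used.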

Additional observations from a re-analysis of the deposited data

Results flagged for a closer look

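Barcodes outside the analysed class also held the genes. The 18 kept barcodes with at least 3 CHGA and at least 1 PTPRC UMI held 43 LMX1A UMIs in 6 barcodes and 170 PENK UMIs in 4, above the share in PTPRC barcodes without CHGA. In the same class 1 NoPP barcode of 10170 UMIs held 101 TAC1 UMIs, nearly all of the 108 TAC1 UMIs in the NoPP matrix. That barcode also had 4103 SST UMIs, 27 CHGA UMIs, 1 PTPRC UMI, and no LMX1A or PENK, and the single-UMI TAC1 barcode of NoPP had 6248 SST UMIs. The 57 CHGA barcodes above the mitochondrial limit held 11 LMX1A UMIs in 9 barcodes, 85 PENK UMIs in 10 and 0 TAC1 UMIs. No explanation of these values was tested.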

How the results depend on the processing

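Over 18 other settings, 522 values of 41 results were recomputed, of which 450 kept their size and direction, 70 moved and 2 reversed. Those with NEUROD1 or CHGB, at least 2 UMIs, division by the median and without CHGA barcodes kept elsewhere, and all LMX1A-split results, were chosen after seeing the data. The split by TPH1 was not run, since TPH1 matched no gene. No paired analysis was possible because the matrices carry no replicate numbers. Ratios below are log2, CHGA barcodes over CHGA-free epithelium unless named as region ratios. The causes of the moves were not tested.

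At most 10% mitochondrial UMIs reversed IPP over NoPP, to 0.19 for LMX1A and 0.22 for PENK. The IPP shares became 73.3% for LMX1A and 80% for PENK. PENK was at 9.01 for JEJ over DUOD and 7.30 for NoPP over DUOD. Against epithelium LMX1A was at 1.97 for DUOD, 5.02 for JEJ, 4.95 for IPP and 4.67 for NoPP, and PENK at 1.29, 10.2, 7.88 and 7.57. In LMX1A barcodes 6 enterochromaffin genes and 0 hormones were then higher, and 1 granule gene was lower. These counts are over JEJ and NoPP alone, since DUOD and IPP had fewer than 5 barcodes with or without LMX1A. At 40% PENK IPP over NoPP was -1.77 and 2 enterochromaffin genes were lower.

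With CHGA at 1 UMI the PENK share in IPP was 19.1%, PENK IPP over NoPP was -1.89, and the epithelium ratios of LMX1A were 6.79 in JEJ, 4.60 in IPP and 5.87 in NoPP, and of PENK 11.8, 7.70 and 8.81. There 3 enterochromaffin genes were lower, and 3 transcription factors and 10 granule genes higher. With CHGA at 5, PENK IPP over NoPP was -1.14. Without the PTPRC condition it was -1.23, and 2 enterochromaffin genes were lower. Without the highest doublet scores it was -1.88, and PENK in IPP against epithelium was 8.04.

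Thinned to 2000 UMIs in 1 random draw, LMX1A shares were 5.41% in DUOD, 11.1% in JEJ and 16.7% in IPP, and TAC1 was at 0 in JEJ and NoPP. LMX1A was then in 57.1% of PENK barcodes and 1.96% of those without, and TAC1 in 0 of the LMX1A barcodes. With members at 2 or more UMIs the DUOD share of LMX1A was 5.41%, TAC1 was at 0 in JEJ, NoPP and LMX1A barcodes, and LMX1A was in 1.98% of barcodes without PENK. In the LMX1A split 0 hormones were then higher and 1 granule gene was lower, without DUOD, which had too few LMX1A barcodes.

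By the mean of the barcodes' own CPM, JEJ over DUOD was 1.57 for LMX1A and 5.67 for PENK, NoPP over DUOD 2.20 and 4.56, IPP over NoPP -0.84 and -0.90, and PENK in JEJ against epithelium 11.9. Without the highest barcode of each class PENK NoPP over DUOD was 6.72, LMX1A in JEJ against epithelium was 6.74, and PENK was at 3.99 for DUOD, 10.7 for JEJ, 7.97 for IPP and 8.77 for NoPP. With NEUROD1 or CHGB the IPP shares were 70% for LMX1A and 80% for PENK, and IPP over NoPP was -0.33 and -0.13. UMIs summed over regions put 4 transcription factors higher. With no minimum beyond 1 UMI, 3 enterochromaffin genes were lower and 3 transcription factors higher. Small counts limit all values, with 19 CHGA barcodes in JEJ and 3 PENK barcodes in DUOD.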

Other observations

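Free RNA was gauged in barcodes below 100 UMIs. PENK was at 3.68 CPM there for DUOD, 15.6 for JEJ, 6.27 for IPP and 11.5 for NoPP, and LMX1A was at 0.409, 0.539, 0.717 and 0.808 CPM. Kept barcodes held 25 of the 77 PENK UMIs of the DUOD matrix (32.5%), 966 of 1097 in JEJ (88.1%), 419 of 497 in IPP (84.3%) and 453 of 583 in NoPP (77.7%). For LMX1A the kept shares were 76% for DUOD, 85.7% for JEJ, 84.7% for IPP and 86.5% for NoPP. The DUOD matrix thus held most of its few PENK UMIs outside kept barcodes.

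Of the barcodes with LMX1A or PENK among CHGA barcodes, 1 in IPP had 46.9% as many UMIs under the same sequence in another library. The highest such value elsewhere was 4.15% in DUOD, 0.419% in JEJ and 0.561% in NoPP.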
